A study of Mus musculus with 6 samples.

Results

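The potassium channel genes were 94 of the 53801 genes in the deposited table of read counts of the adult mouse brain. They were taken as every gene whose symbol starts with Kcn, without the transcripts whose names contain os or ot, which left out 5 genes. Of the 94, 77 encode pore-forming subunits of 10 families and 17 encode auxiliary subunits. RNA-seq was performed on 1 brain hemisphere of each of 3 Bahd1-WT (Bahd1+/+) and 3 Bahd1-KO (Bahd1-/-) male mice of the C57BL/6 background, which the labels give as about 70 weeks old, with no treatment other than the deletion. Bahd1, a nuclear protein of heterochromatin-repressive complexes, was inactivated in the whole animal and not in chosen cells of the brain, and the Bahd1-KO mice came from heterozygous parents. The comparison asked which genes of the adult brain differed in level in its absence.

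Potassium channels let potassium ions cross the cell membrane, and thereby set the resting potential of neurons and glia and end the action potential. Voltage-gated channels open on depolarization, ligand-gated members open on intracellular calcium or sodium, inward rectifiers hold the resting potential and answer to G proteins or ATP, and two-pore-domain channels carry leak currents. Auxiliary subunits are not part of the pore and alter the gating or the transport of the channel they bind.

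Library depth ranged from 42297150 to 93557948 counts, and potassium channel genes took 0.530% to 0.600% of them. Bahd1 had 844 to 1383 counts in the Bahd1-WT libraries and 0 to 14 in the Bahd1-KO libraries, and every library thus had the Bahd1 level of its label. A library that stood apart from the rest was that of Bahd1-KO replicate 2, at 90.3 on a first principal component that carried 88.9% of the variance, against 33.0 and -2.49 for the other Bahd1-KO libraries and -56.5 to -24.9 for the Bahd1-WT libraries. Values without this library are given beside members whose ratio of Bahd1-KO to Bahd1-WT it moved by over 1.5 times, and beside some others. Members without such a value could also move, as Kcnh7 from a log2 fold change of -0.48 to -0.25 and Kcnab2 from 1.06 to 0.70. Markers of brain cells were present in every library. Those of neurons summed to 6196 to 7636 CPM (counts scaled to library size) in Bahd1-WT and 5889 to 7056 in Bahd1-KO, those of oligodendrocytes to 5060 to 5853 and 5303 to 8246, those of microglia to 312 to 358 and 280 to 334, and those of vessels to 353 to 402 and 362 to 393. Bulk tissue was sequenced, and fewer cells of a type cannot be told apart from less RNA per cell. Nothing in the labels says more of the mice than that they were separate samples, so p-values measure the spread between these 6 libraries.

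Levels between genes were compared per length of exon, as reads per kilobase scaled to library size (RPKM), as the mean of the 6 hemispheres. By this measure 29 members were at 10 RPKM or more, 37 were between 1 and 10, and 28 were under 1. Kcnj10, the inward rectifier through which astrocytes clear potassium, had the highest mean level at 94.2 RPKM. Next came Kcnk1, a two-pore-domain channel, at 64.8 RPKM, and Kcnip4, a calcium-binding partner of Kv4 channels, at 46.1 RPKM. Their order depends on the length taken, since Kcnip4 was higher per length of its longest transcript. Kcnab2, a cytoplasmic beta subunit of Kv1 channels, stood at 39.2 RPKM, close to Kcnj3, a subunit of G-protein-gated channels, at 38.3, and to Kcnd2, a channel of the dendritic A-type current, at 38.0. The 10 members with the highest level held 49.0% of the summed RPKM of all 94. By genotype, Kcnj10 was at 96.0 ± 6.58 RPKM in Bahd1-WT and 92.4 ± 9.55 in Bahd1-KO, and Kcnk1 at 67.9 ± 7.79 and 61.7 ± 9.10 (SD, n = 3).

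**Figure D1:**
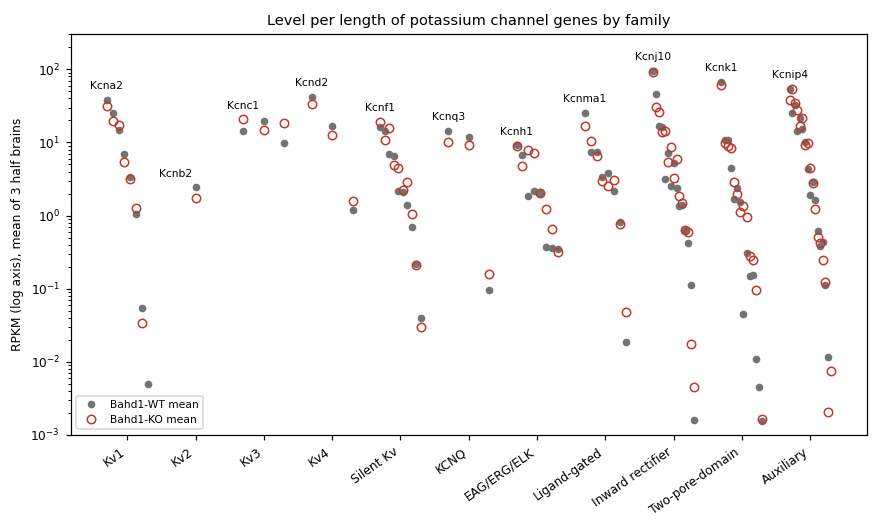
Level of potassium channel genes by family, in RPKM on a log axis, as the mean of 3 Bahd1-WT hemispheres (filled grey) and 3 Bahd1-KO hemispheres (open red), for the members reported here, with the highest of these in each family named and genes at 0 in a genotype not drawn for it. Levels in every family of more than 5 members spanned over a 10-fold range.

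A member was tested when its counts summed to at least 10 over the 6 libraries, which 88 of the 94 did. The other 6 members, Kcna7, Kcne1, Kcnj1, Kcnk16, Kcnk18 and Kcnmb3, had at most 3 counts in any library. None of the 88 passed an adjusted p-value of 0.05 in edgeR's quasi-likelihood test, where 0.00834% of all 23975 genes tested did. Their lowest adjusted p was 0.0634, close to the threshold, and 15 passed when library sizes were total counts, beside 9.4% of all genes. At an unadjusted p under 0.05, 26 members were higher in Bahd1-KO and 9 were lower, which is 29.5% and 10.2% of them, beside 19.9% and 12% of all genes, shares to which the counts over families and marker lists by this rule are also to be set. DESeq2, the tool of the study, was run here with a normal prior on fold changes. It gave an adjusted p-value to 86 members and called 21 higher and 1 lower, beside 17.7% and 3.54% of all genes. With the study's threshold of at least 2-fold, 15 were higher and 1 was lower, beside 11.9% and 1.13% of all genes. By unadjusted p and by both DESeq2 rules the share of members that were higher was above that of all genes.

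All 3 Bahd1-KO libraries lay above all 3 Bahd1-WT libraries for 28 members (31.8%, beside 20.6% of all genes), and below them for 15 (17.0%, beside 19.3%). Bahd1-KO replicate 2 was the highest of the 6 libraries for each of those 28, and the lowest for 7 of the 9 members that were lower at an unadjusted p under 0.05. Without it, 22 members were higher and 6 lower at an unadjusted p under 0.05 in edgeR, beside 15.5% and 9.35% of all genes. None passed edgeR's adjusted threshold, which 0.0174% of all genes did, while DESeq2 without this library called 17, beside 16.5% of all genes. Without Bahd1-KO replicate 1, the Bahd1-KO library nearest to the Bahd1-WT libraries, 33 members passed the adjusted threshold in edgeR, beside 30.0% of all genes. Of the 33, 20 were at least 2-fold higher, a count for which no share of all genes was taken.

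**Figure D2:**
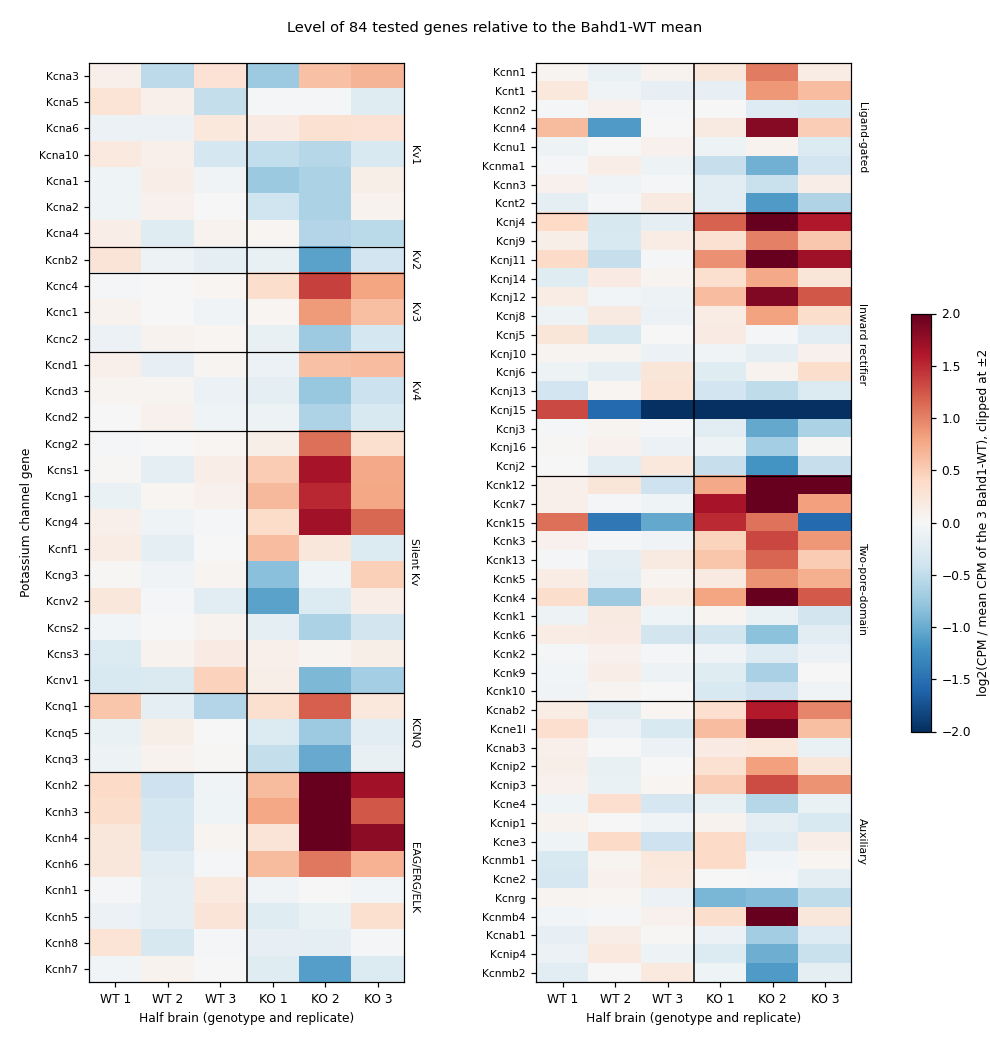
Each row is 1 of 84 tested genes, grouped by family and ordered within it from high to low GC content, and each column is 1 hemisphere. Colour gives log2 of counts scaled to library size (CPM), with 0.05 CPM added, relative to the Bahd1-WT mean and clipped at 2 in either direction. Red rows stand at the top of most families and blue rows at the bottom, with the strongest colour in Bahd1-KO replicate 2.

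The order of the members by fold change followed the GC content of their transcripts. Spearman's rho between the log2 fold change and the GC content of the longest transcript was 0.83 over the 88 members, 0.81 without Bahd1-KO replicate 2, and it is given as a description, since these genes share their libraries. In 4 tested members, Kcnmb4, Kcnn3, Kcnn4 and Kcnk4, the longest transcript is not protein-coding and its GC content lies over 5 points below that of the longest protein-coding one, and with the latter for every gene rho was 0.88. The 30 members of 55.1% to 69.4% GC all had a positive log2 fold change, with a median of 0.98, and 23 of them were higher at an unadjusted p under 0.05. The 29 members of 47.7% to 54.8% GC had a median of -0.04, and the 29 of 36.6% to 47.7% GC had a median of -0.39, with 25 of the latter negative. Over all genes in the same ranges of GC content, the median log2 fold change was 1.10 over 4358 genes, 0.15 over 8587 and -0.41 over 10124. The potassium channel genes thus had medians somewhat under those of other genes of high and middle GC content, and about that of other genes of low GC content.

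Single libraries showed the same order in different degrees. Relative to the Bahd1-WT mean, the median of the GC-rich members was 0.36 on the log2 scale in Bahd1-KO replicate 1, 1.44 in replicate 2 and 0.76 in replicate 3. Among the Bahd1-WT libraries it was 0.11, -0.16 and -0.03, and rho with GC content was 0.48 in Bahd1-WT replicate 1, -0.34 in replicate 2 and -0.11 in replicate 3. Libraries of one genotype thus also differed along GC content. Across the members, rho of the log2 fold change was 0.74 with the GC content of the coding sequence, 0.62 with that of the third codon position, 0.74 with that of the transcript outside the coding sequence, -0.36 with exon length and -0.15 with the mean RPKM. With the GC content of the promoter (250 bases before to 50 after the start in RefSeq, GRCm38.p6), rho was 0.34 over the 64 tested members whose promoter was in that table.

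To set members against genes of like composition, the fit was repeated with an offset for GC content and length in each library, a curve drawn through all expressed genes. With the offset, rho with GC content was -0.16, and 40 of the 88 members changed sign. At an unadjusted p under 0.05, 9 members were then higher and 18 lower, beside 9.82% and 11.6% of all genes, and none passed the adjusted threshold, which 0.0167% of all genes did. DESeq2 with the same offset gave an adjusted p-value to 84 members, of which 4 were higher (Kcnj11, Kcnj4, Kcnk12 and Kcnk4) and 5 lower (Kcnab3, Kcna3, Kcna5, Kcnn2 and Kcng2), beside 7.17% and 4.72% of all genes, with none past 2-fold in either direction, where 0.686% and 0.29% of all genes were. An offset from the longest protein-coding transcripts, added after the data were seen, gave 81 of the 88 members the same sign, with 7 higher and 22 lower at an unadjusted p under 0.05, beside 9.69% and 10.9% of all genes. It lowered the values of Kcnmb4, Kcnn3, Kcnn4 and Kcnk4, and Kcnk4 was no longer at that p. The offset named without further words is that from the longest transcripts.

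**Figure D3:**
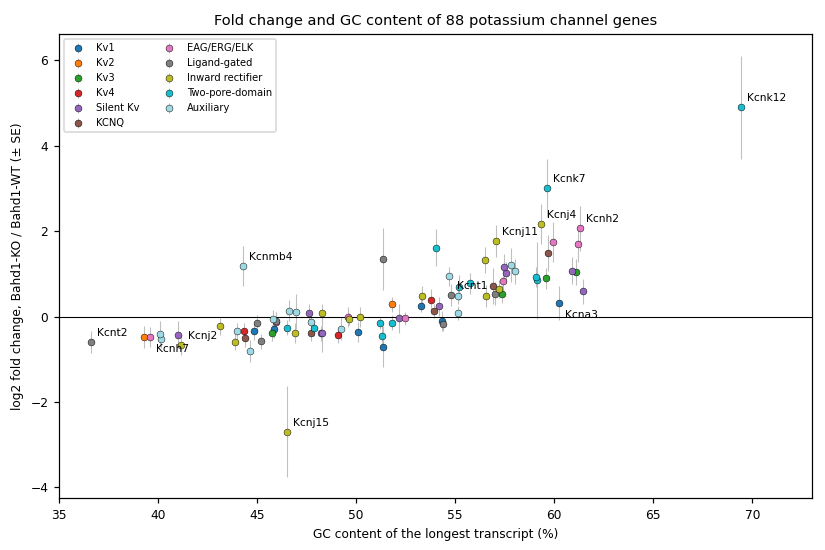
The log2 fold change of Bahd1-KO over Bahd1-WT (edgeR, ± SE, 3 hemispheres a genotype) of each of the 88 tested genes against the GC content of its longest transcript, coloured by family. Genes above 55.1% GC lie above 0, and Kcnmb4, at 44.3% GC (63.2% in its protein-coding transcript), and Kcnj15, at 46.5% GC, lie away from the others at their place on the axis.

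Members of the Kv1 family (Kcna genes), the delayed rectifiers of axons, had a median log2 fold change of -0.29 over 7 tested genes, and 0 of the 7 were at an unadjusted p under 0.05. Kcna2, the most abundant of them per length at 34.6 RPKM, was at 426, 484 and 451 CPM in Bahd1-WT and 343, 293 and 474 CPM in Bahd1-KO. Its partner Kcna1, with which it forms channels beside the node of Ranvier, was at 114, 133 and 116 CPM in Bahd1-WT and 72.1, 78.3 and 131 CPM in Bahd1-KO. Both were low in Bahd1-KO replicates 1 and 2 and within the Bahd1-WT range in replicate 3, so the genotypes overlapped. The log2 fold change was -0.29 ± 0.20 (SE) for Kcna2 and -0.37 ± 0.23 for Kcna1, with adjusted p-values of 0.318 and 0.295 (edgeR). Kcna3, a channel known from microglia and T cells, was at 1.36 to 2.43 CPM in Bahd1-WT and 1.17 to 3.18 in Bahd1-KO. At 60.3% GC it had a log2 fold change of 0.32, and of -1.07 with the offset (unadjusted p = 0.00840, edgeR).

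Kv2 channels (Kcnb genes) are delayed rectifiers of the soma and proximal dendrites of neurons. Kcnb2 was at 44.4, 34.3 and 32.1 CPM in Bahd1-WT and 33.2, 17.5 and 28.4 CPM in Bahd1-KO. The genotypes overlapped through Bahd1-KO replicate 1. Its log2 fold change was -0.49 ± 0.26, and with the offset it was 0.18.

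Kv3 channels (Kcnc genes) repolarize fast-spiking neurons such as parvalbumin interneurons. Kcnc4 was at 34.8 to 37.0 CPM in Bahd1-WT and 45.7 to 93.0 in Bahd1-KO, with all Bahd1-KO values above all Bahd1-WT values and a log2 fold change of 0.90. Kcnc1 was at 143, 135 and 130 CPM against 140, 245 and 205, and its first Bahd1-KO value fell within the Bahd1-WT range. Kcnc2, the family's member of lowest GC content at 45.7%, lay the other way, at 129 to 146 CPM in Bahd1-WT and 84.6 to 126 in Bahd1-KO, with a log2 fold change of -0.39. With the offset the values were -0.43 for Kcnc1, -0.13 for Kcnc2 and -0.40 for Kcnc4.

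Of 6 markers of GABA interneurons, 2 were higher and 1 lower at an unadjusted p under 0.05, beside 19.9% and 12% of all genes, and none passed the adjusted threshold in edgeR. Pvalb, the gene of parvalbumin, was at 140, 152 and 153 CPM in Bahd1-WT and 192, 259 and 188 CPM in Bahd1-KO. All its Bahd1-KO values were higher, with a log2 fold change of 0.52 and, with the offset, of 0.37. Slc32a1, the vesicular GABA transporter, was also higher, with 1.87, with 1.04 without Bahd1-KO replicate 2 and with 0.16 with the offset, while Gad2, an enzyme of GABA synthesis, was lower, with -0.53 and -0.17. Summed, the 6 were at 1277 to 1530 CPM in Bahd1-WT and 1140 to 1497 in Bahd1-KO, most of it Gad1 and Gad2. Of 6 markers of the cerebellum, Pcp2 and Cbln1 were higher and 0 were lower by the same rule, and none passed the adjusted threshold in edgeR. DESeq2 called 1 of them higher, Pcp2, and 0 lower, beside 17.7% and 3.54% of all genes. Pcp2, a gene of Purkinje cells, was at 8.88, 6.03 and 3.85 CPM in Bahd1-WT and 15.5, 94.2 and 30.5 CPM in Bahd1-KO, with a log2 fold change of 2.90, of 1.89 without Bahd1-KO replicate 2 and of 2.60 with the offset. Summed, the cerebellar markers were at 1122 to 1289 CPM in Bahd1-WT and 1023 to 1257 in Bahd1-KO. The part of these cells in the Kcnc values was not tested.

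Kv4 channels (Kcnd genes) carry the transient A-type current of dendrites. Kcnd2 was at 216, 232 and 206 CPM in Bahd1-WT and 203, 141 and 177 CPM in Bahd1-KO. Kcnd3 was at 169, 168 and 149 CPM in Bahd1-WT and 142, 95.7 and 121 CPM in Bahd1-KO. Both genes lay below the Bahd1-WT range in every Bahd1-KO library. Their log2 fold changes were -0.33 ± 0.17 (adjusted p = 0.211, edgeR) and -0.44 ± 0.18 (adjusted p = 0.134). With the offset the value was 0.01 for Kcnd2 and -0.35 for Kcnd3. Kcnd1, of 53.8% GC, was at 5.65 to 6.85 CPM against 5.84 to 9.76.

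Silent Kv subunits (Kcnf, Kcng, Kcns and Kcnv genes) form no channel alone and change the properties of Kv2 channels when they join them. Of 10 tested, 3 were higher at an unadjusted p under 0.05 and none lower. Kcng1 was at 8.88, 10.03 and 10.4 CPM in Bahd1-WT and 15.3, 27.8 and 16.6 CPM in Bahd1-KO. No Bahd1-KO value came near the Bahd1-WT range. Its log2 fold change was 1.03 ± 0.26 (adjusted p = 0.0634, edgeR), and with the offset it was -0.04. Kcng4 and Kcns1 had log2 fold changes of 1.16 and 1.07, and with the offset 0.08 and -0.39. Kcng2, at 61.5% GC, had 0.59, and -0.92 with the offset (unadjusted p = 0.00323, edgeR).

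KCNQ channels give the M-current, which restrains repeated firing. Of the 5 genes 3 had a positive log2 fold change, 1 was higher and 1 lower at an unadjusted p under 0.05, and DESeq2 called 1 higher and 0 lower, beside 17.7% and 3.54% of all genes. Kcnq3, the lower one, was at 197, 221 and 213 CPM in Bahd1-WT and 151, 105 and 189 CPM in Bahd1-KO. All Bahd1-KO values were below the Bahd1-WT range, with a log2 fold change of -0.50 ± 0.22 (adjusted p = 0.150, edgeR). Kcnq3 has 44.4% GC, and with the offset its value was -0.10.

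The EAG, ERG and ELK channels (Kcnh genes) shape the resting potential and the adaptation of firing. Of the 8, 4 were higher at an unadjusted p under 0.05. Kcnh2, the ERG channel best known from cardiac repolarization, was at 11.8, 6.80 and 8.58 CPM in Bahd1-WT and 14.0, 70.5 and 29.2 CPM in Bahd1-KO. Kcnh7, another ERG channel with a neuronal distribution, was at 98.6, 107 and 102 CPM in Bahd1-WT and 87.0, 48.0 and 85.1 CPM in Bahd1-KO. Both were separated, on opposite sides, and Bahd1-KO replicate 2 was the extreme library of each. The log2 fold changes were 2.07 ± 0.52 (adjusted p = 0.0634, edgeR) and -0.48 ± 0.23 (adjusted p = 0.180), and with the offset they were 0.44 and 0.15. Without Bahd1-KO replicate 2 the value of Kcnh2 was 1.27, and 0.28 with the offset as well. Kcnh3, an ELK channel of the forebrain, was at 16.2, 9.86 and 11.8 CPM in Bahd1-WT and 21.5, 71.1 and 29.8 CPM in Bahd1-KO. This gave a log2 fold change of 1.69 ± 0.42, of 1.03 without Bahd1-KO replicate 2 and of 0.15 with the offset. Kcnh4 and Kcnh6 were also separated upward, with log2 fold changes of 1.75 (1.26 without Bahd1-KO replicate 2) and 0.83, and with the offset 0.32 and -0.16, and Kcnh1, Kcnh5 and Kcnh8 lay between -0.13 and -0.001.

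The pore of a potassium channel carries a signature that lines the selectivity filter and is kept across families. Its codons were searched in frame on the coding strand of the longest complete coding sequence of every gene in the GENCODE M21 transcripts (GRCm38), as GGNTANGGN after ACN and 1 of ATN, CTN or GTN, or as GGNTTNGGN after ACN and ATN or GTN, or after AGN or TCN and GTN, where N is any base. Of the 94 members, 70 held at least 1 match and 11 held 2 or more. Of all 21905 genes with such a sequence, these 70 among them, 120 or 0.548% held a match. The patterns are those of potassium channels, so that this difference was set in advance. Auxiliary genes, which form no pore, had no match. Other forms of the signature were not searched, so a pore-forming gene without a match need not lack it. The 63 coding bases around the match are shown for the ERG genes Kcnh2 and Kcnh7, since they code for the same part of related channels with different GC content. Capitals mark the match.
Kcnh2: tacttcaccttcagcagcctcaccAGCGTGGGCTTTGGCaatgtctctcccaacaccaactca
Kcnh7: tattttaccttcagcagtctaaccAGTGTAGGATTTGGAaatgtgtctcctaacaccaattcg
The Kcnh2 window lies in a coding exon on the minus strand at chr5:24325531-24325593 and that of Kcnh7 on the minus strand at chr2:62777319-62777381 (GRCm38). They are identical at 51 of 63 bases, and all 12 differences are at the third codon position. At 10 of the 12 only Kcnh2 has G or C, and at 1 only Kcnh7 does. G or C fills the third position of 17 of the 21 codons in Kcnh2 and of 8 in Kcnh7. The whole transcripts have 61.3% and 39.6% GC. This pair and the others printed were chosen after their values were seen.

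Ligand-gated members comprise the BK channel Kcnma1, its relative Kcnu1, the small and intermediate calcium-gated Kcnn channels and the sodium-gated Kcnt channels. Kcnma1, which is opened jointly by calcium and depolarization, was at 418, 471 and 402 CPM in Bahd1-WT and 312, 221 and 330 CPM in Bahd1-KO. Every Bahd1-KO value was below every Bahd1-WT value. The log2 fold change was -0.58 ± 0.19, with an adjusted p of 0.0829 (edgeR), of -0.43 without Bahd1-KO replicate 2 and -0.21 with the offset. Kcnn2, an SK channel of the afterhyperpolarization, was at 52.9, 58.0 and 53.0 CPM in Bahd1-WT and 55.1, 45.7 and 44.2 CPM in Bahd1-KO. Its log2 fold change was -0.18 (adjusted p = 0.451, edgeR), and with the offset -0.74 (unadjusted p = 0.00823, edgeR). Kcnn4, of the intermediate type, had at most 0.462 CPM in any library, with a log2 fold change of 1.35, of 0.44 without Bahd1-KO replicate 2, of 1.14 with the offset and of -0.18 with that from coding transcripts.

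Kcnt1 and Kcnt2 encode the sodium-gated channels. Kcnt1 was at 81.1, 66.9 and 62.5 CPM in Bahd1-WT and 62.5, 128 and 108 CPM in Bahd1-KO. Kcnt2 was at 23.0, 25.7 and 29.7 CPM in Bahd1-WT and 22.7, 11.9 and 17.3 CPM in Bahd1-KO. For Kcnt1 the genotypes overlapped, and for Kcnt2 they did not. The log2 fold changes were 0.50 ± 0.26 (adjusted p = 0.205, edgeR) and -0.60 ± 0.25 (adjusted p = 0.142), and with the offset -0.16 and 0.05. Their transcripts have 54.8% and 36.6% GC, the latter being the lowest of all members. Around the signature they read as follows, with the match in capitals.
Kcnt1: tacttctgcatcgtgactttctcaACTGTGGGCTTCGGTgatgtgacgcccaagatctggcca
Kcnt2: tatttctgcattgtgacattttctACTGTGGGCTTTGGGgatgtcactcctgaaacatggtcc
These exonic windows are on the plus strand at chr2:25894343-25894405 for Kcnt1 and at chr1:140425254-140425316 for Kcnt2 (GRCm38). They differ at 16 of 63 bases, 13 of them at the third codon position, which is G or C in 15 and 9 of 21 codons.

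Inward rectifiers (Kcnj genes) divided into both directions, with 4 higher and 3 lower at an unadjusted p under 0.05 among 14 tested. Kcnj4, a strong rectifier of forebrain neurons, was at 8.93, 5.46 and 5.99 CPM in Bahd1-WT and 15.5, 55.5 and 20.6 CPM in Bahd1-KO. Kcnj11, the pore of ATP-sensitive channels, was at 12.3, 6.83 and 9.15 CPM in Bahd1-WT and 17.9, 48.0 and 30.6 CPM in Bahd1-KO. Kcnj12, another strong rectifier, was at 7.23, 6.24 and 6.04 CPM in Bahd1-WT and 9.98, 23.6 and 15.4 CPM in Bahd1-KO. For each of the 3 genes every Bahd1-KO library was higher, and Bahd1-KO replicate 2 was the highest. Their log2 fold changes were 2.17 ± 0.47, 1.77 ± 0.37 and 1.33 ± 0.31, each with an adjusted p of 0.0634 (edgeR), and without Bahd1-KO replicate 2 they were 1.42, 1.37 and 0.97. With the offset they remained positive at 0.73 ± 0.15, 0.73 ± 0.14 and 0.33 ± 0.13. DESeq2 gave adjusted p-values of 7.49e-05, 0.000124 and 0.000858 to them without the offset, and of 0.0012, 0.00056 and 0.101 with it.

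Lower inward rectifiers were Kcnj2, Kcnj3 and Kcnj15. Kcnj2, the rectifier mutated in a periodic paralysis, was at 28.1, 24.0 and 32.6 CPM in Bahd1-WT and 20.5, 12.3 and 20.5 CPM in Bahd1-KO. Kcnj3 was at 234, 249 and 236 CPM in Bahd1-WT and 206, 118 and 155 CPM in Bahd1-KO. Both were separated, and their log2 fold changes were -0.67 ± 0.24 (adjusted p = 0.105, edgeR) and -0.59 ± 0.21 (adjusted p = 0.101). With the offset they were -0.19 and -0.23. The G-protein-gated channels of the brain also contain Kcnj6 and Kcnj9. Kcnj9, at 57.6 to 79.1 CPM in Bahd1-WT and 88.4 to 143 in Bahd1-KO, had a log2 fold change of 0.65, opposite to that of Kcnj3, and of -0.33 with the offset. Kcnj6 had 0.08.

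Windows around the signature are shown for Kcnj4 and Kcnj2, strong rectifiers that lay on opposite sides.
Kcnj4: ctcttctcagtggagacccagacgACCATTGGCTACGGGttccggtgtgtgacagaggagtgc
Kcnj2: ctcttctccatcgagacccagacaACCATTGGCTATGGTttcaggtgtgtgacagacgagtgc
The Kcnj4 window is on the minus strand at chr15:79485343-79485405 and the Kcnj2 window on the plus strand at chr11:111072183-111072245 (GRCm38), both in coding exons. They share 55 of 63 bases. Of 8 differences, 5 give G or C to Kcnj4 alone and 1 to Kcnj2 alone. Here the coding windows are both rich in G and C at the third codon position, with 17 and 15 of 21 codons, while the transcripts have 59.3% and 41.2% GC.

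Kcnj10 was at 538, 542 and 478 CPM in Bahd1-WT and 493, 451 and 554 CPM in Bahd1-KO. The genotypes overlapped, and its log2 fold change was -0.06 ± 0.15 (adjusted p = 0.816, edgeR). Markers of astrocytes, which express it, summed to 5470 to 5960 CPM in Bahd1-WT and 3461 to 5154 in Bahd1-KO, most of it Slc1a2. The log2 fold change of Slc1a2 was -0.49, and -0.14 with the offset. Of those 6 markers, 2 were higher (Gfap and Aldh1l1) and 1 lower (Aqp4) at an unadjusted p under 0.05. Kcnj13, a rectifier of the choroid plexus, was at 6.87, 9.28 and 10.9 CPM against 6.92, 6.29 and 7.46, with a log2 fold change of -0.39 (adjusted p = 0.259, edgeR). Of its exons, 623 bases overlap the abundant gene Gigyf2 on the other strand. The 6 choroid plexus markers summed to 287 to 383 CPM in Bahd1-WT and 466 to 1088 in Bahd1-KO, most of it Ttr, and 1 of them was higher and 1 lower at an unadjusted p under 0.05.

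Kcnj15 was the only member that DESeq2 without the offset called lower. It was counted 171, 13 and 5 times in Bahd1-WT and 5, 11 and 6 times in Bahd1-KO, or 1.87, 0.211 and 0.0682 CPM against 0.115, 0.116 and 0.104 CPM. Bahd1-WT replicate 1 was high, and the third Bahd1-WT library was below all Bahd1-KO libraries. Its log2 fold change was -2.69 ± 1.06 (adjusted p = 0.126, edgeR), and -0.29 without Bahd1-WT replicate 1 (adjusted p = 0.773). Markers of lung and airway, tissues outside the brain, summed to 114, 27.1 and 2.43 CPM in the same Bahd1-WT libraries and to 0.552, 1.43 and 0.933 CPM in Bahd1-KO, and all 6 were lower at an unadjusted p under 0.05. Scgb1a1 was at 48.6, 14.9 and 0.941 CPM in the Bahd1-WT libraries, in the same order as Kcnj15. The part of this tissue in the Kcnj15 value was not tested.

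**Figure D4:**
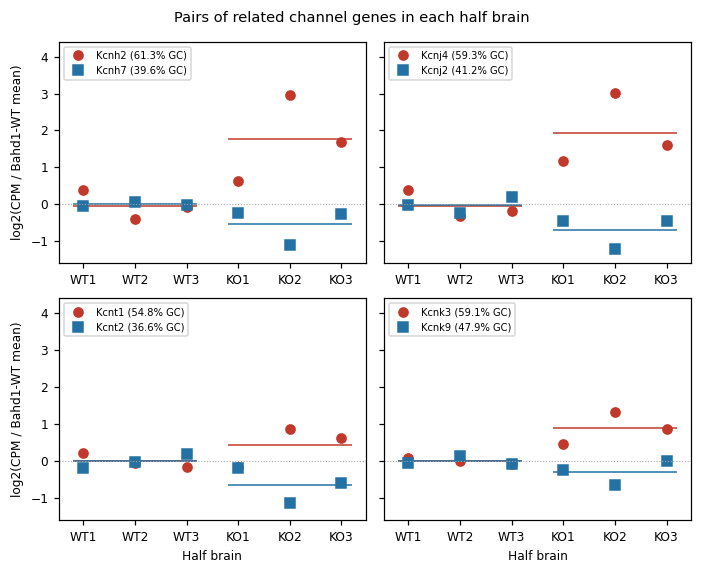
Level of 4 pairs of related channels in each hemisphere, as log2 of CPM (with 0.05 CPM added) over the Bahd1-WT mean, with lines at the mean of each genotype. The GC-rich gene (red circles) lay above and the other (blue squares) below the Bahd1-WT mean in Bahd1-KO replicate 2 of every pair.

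Two-pore-domain channels (Kcnk genes) had 12 tested members, 6 of them higher and 0 lower at an unadjusted p under 0.05, beside 19.9% and 12% of all genes. With the offset 3 were higher and 3 lower, beside 9.82% and 11.6% of all genes, and the median log2 fold change was -0.06, against 0.73 without it. Kcnk12, which gives no current of its own when expressed alone, had 9, 7 and 4 counts in Bahd1-WT and 8, 659 and 48 in Bahd1-KO. In CPM these were 0.0984, 0.113 and 0.0545 against 0.184, 6.92 and 0.829. All Bahd1-KO libraries were higher, yet they differed among themselves far more than the genotypes' nearest libraries did. Its log2 fold change was 4.90 ± 1.21 (adjusted p = 0.0634, edgeR), 2.54 without Bahd1-KO replicate 2 and 2.05 ± 0.64 with the offset, or 1.15 with the offset and without that library. Its transcript had the highest GC content of all members, at 69.4%. The second of its signature matches lies on the minus strand at chr17:87746429-87746491 (GRCm38) and has G or C at the third position of 20 of 21 codons.
Kcnk12: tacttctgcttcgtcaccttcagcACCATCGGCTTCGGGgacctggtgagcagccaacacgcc

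Kcnk7 was counted 2, 1 and 1 times in Bahd1-WT and 7, 21 and 4 times in Bahd1-KO. The ratio of summed counts, scaled to library size, was 9.22, with a 95% counting interval of 3.27 to 35.9 that covers counting error only. Kcnk4, a mechanically gated leak channel, was at 1.77, 0.810 and 1.53 CPM against 2.39, 6.93 and 3.28, with log2 fold changes of 1.62 and, with the offset, 0.97 ± 0.29, or 1.05 and 0.66 without Bahd1-KO replicate 2. With the offset from coding transcripts it had 0.20 (unadjusted p = 0.353, edgeR), its GC content being 59.8% in the longest of these and 54.0% in the longest transcript of any kind. Its exons share 587 bases on the same strand with Catsperz, so that reads there could belong to either gene. Kcnk3 and Kcnk9 are acid-sensitive channels that form heteromers. Kcnk3 was at 18.7, 17.4 and 16.7 CPM in Bahd1-WT and 24.0, 44.3 and 32.2 CPM in Bahd1-KO, with all Bahd1-KO values above. Kcnk9 was at 129, 146 and 125 CPM in Bahd1-WT and 112, 85.3 and 133 CPM in Bahd1-KO, and the genotypes overlapped. Their log2 fold changes were 0.93 ± 0.23 and -0.27 ± 0.19, with GC contents of 59.1% and 47.9%, and with the offset they were -0.29 and -0.06.

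Kcnk1, the leak channel of highest level, was at 141, 172 and 143 CPM in Bahd1-WT and 158, 139 and 117 CPM in Bahd1-KO, with a log2 fold change of -0.14 ± 0.17 (adjusted p = 0.585, edgeR). Kcnk2, a channel opened by stretch and lipids, was at 51.5, 56.4 and 51.7 CPM against 50.9, 44.5 and 48.8, a log2 fold change of -0.15 ± 0.15 (adjusted p = 0.505). Kcnk1 overlapped between genotypes, while each Kcnk2 value of Bahd1-KO was lower by little. With the offset both were lower at an unadjusted p under 0.05 in edgeR, with a log2 fold change of -0.43 for Kcnk1 (unadjusted p = 0.0184, edgeR) and of -0.32 for Kcnk2 (unadjusted p = 0.0283, edgeR). Without Bahd1-KO replicate 2 as well these were -0.34 and -0.22, and neither was at that p.

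Among auxiliary subunits 15 of 17 were tested, with 5 higher and 2 lower at an unadjusted p under 0.05. Kcnab2 was at 158, 122 and 146 CPM in Bahd1-WT and 180, 428 and 279 CPM in Bahd1-KO. All Bahd1-KO values were higher, with a log2 fold change of 1.06 ± 0.29 (adjusted p = 0.0650, edgeR), and of -0.08 with the offset. Its relative Kcnab1, of lower GC content, had -0.34. Among the Kv4-binding Kcnip genes, Kcnip3, a calcium sensor also known as a transcriptional repressor, was at 54.5, 46.6 and 52.4 CPM in Bahd1-WT and 71.9, 127 and 95.5 CPM in Bahd1-KO. Kcnip4 was at 182, 226 and 185 CPM in Bahd1-WT and 163, 101 and 146 CPM in Bahd1-KO. Both were separated, Kcnip3 upward with a log2 fold change of 0.94 ± 0.22 (adjusted p = 0.0634, edgeR) and Kcnip4 downward with -0.53 ± 0.20 (adjusted p = 0.119). With the offset the values were 0.24 and -0.06.

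Kcnmb4 is the neuronal beta subunit of the BK channel. It was at 14.0, 14.2 and 15.4 CPM in Bahd1-WT and 18.5, 63.9 and 16.9 CPM in Bahd1-KO. All Bahd1-KO libraries were higher, replicate 2 by far. This gave a log2 fold change of 1.19 ± 0.47 (adjusted p = 0.126, edgeR) and 1.53 with the offset. Without Bahd1-KO replicate 2 these were 0.29 (unadjusted p = 0.101, edgeR) and 0.46 (unadjusted p = 0.00613). The offset used the 44.3% GC of its longest transcript, which is not coding, whereas the protein-coding transcript has 63.2% GC, and the offset from coding transcripts turned the value to -0.70 (unadjusted p = 0.00421, edgeR). Its direction relative to genes of like GC content thus depends on the transcript taken. Exons of Kcnmb4 overlap antisense transcripts, of which Kcnmb4os2 shares 693 bases and had 692 counts over all libraries, against 11148 for Kcnmb4.

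Kcnrg, a soluble protein that hinders the assembly of Kv channels, was at 0.820, 0.810 and 0.723 CPM in Bahd1-WT and 0.391, 0.410 and 0.536 CPM in Bahd1-KO. All Bahd1-KO values were lower, with a log2 fold change of -0.81 ± 0.26 (adjusted p = 0.0839, edgeR) and of -0.55 with the offset. With Kcnma1 it was the only member of lower level at an adjusted p under 0.1, beside 22 of higher level, where 4.77% and 14.7% of all genes were. Kcne2, a subunit of the choroid plexus, was at 4.03, 5.46 and 5.88 CPM against 5.15, 5.03 and 4.51, and the genotypes overlapped.

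**Figure D5:**
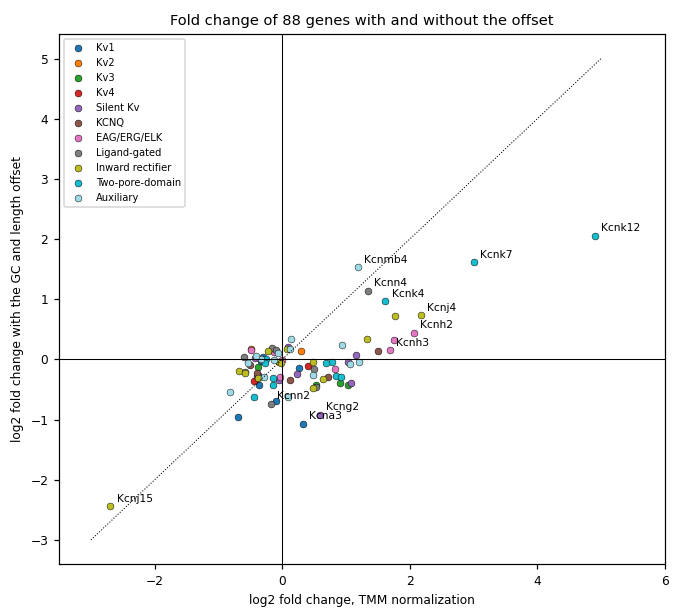
The log2 fold change of each of the 88 tested genes in the fit with TMM normalization (horizontal) against that with the GC and length offset (vertical), coloured by family. Most genes lie near 0 on the vertical axis, while Kcnk12, Kcnk7, Kcnmb4, Kcnn4 and Kcnk4 are the highest on that axis and Kcnj15 the lowest. With the offset from coding transcripts Kcnmb4, Kcnn4 and Kcnk4 had -0.70, -0.18 and 0.20.

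Taken by family, the median log2 fold change ran from -0.33 in Kv4 to 0.73 in two-pore-domain channels, and the median GC content of families of 3 or more tested members from 46.9% in auxiliary subunits to 58.5% in Kv3. With the offset the medians of these families ran from -0.42 in Kv1 to 0.13 in EAG, ERG and ELK channels. Over all 88 members the median was 0.08, and -0.06 with the offset, while that of all genes was -0.06. Summed per length, Kv3 genes were at 66.9 ± 2.16 RPKM in Bahd1-WT and 102 ± 29.8 in Bahd1-KO (SD, n = 3), and Kv1 genes at 89.2 ± 3.17 and 77.9 ± 14.1.

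At an unadjusted p under 0.05, 9 members were higher both with and without the offset, namely Kcnip3, Kcnmb4, Kcnh2, Kcnj11, Kcnj12, Kcnj4, Kcnk12, Kcnk4 and Kcnk7. They are 10.2% of the members, beside 7.41% of all genes. With the offset and without Bahd1-KO replicate 2, Kcnh2, Kcnj12, Kcnk12 and Kcnk7 were no longer at that p, which left 5, or 5.68%, beside 5.2% of all genes. Only Kcnj15, Kcnj3 and Kcnd3 were lower in both, 3.41% of the members beside 3.87% of all genes, and 0 of these 3 were at that p with the offset and without Bahd1-KO replicate 2, beside 2.38% of all genes. With the offset from coding transcripts Kcnmb4 and Kcnk4 of the 9, and Kcnj3 of these 3, were not called in that direction, which left 7 and 2. Another 4 members that were higher without the offset were lower with it, 4.55% of the members beside 1.28% of all genes.

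Among 29 genes whose proteins bind, anchor or work beside potassium channels, 28 were tested, and Lrrc26 had 0 counts in all libraries. Of the 28, 10 were higher and 4 lower at an unadjusted p under 0.05, and none passed the adjusted threshold in edgeR, while DESeq2 called 8 higher and 0 lower. Beside these stand 19.9% and 12% of all genes by unadjusted p and 17.7% and 3.54% by DESeq2. With the offset 4 were higher and 2 lower at an unadjusted p under 0.05, beside 9.82% and 11.6% of all genes. Abcc8, the sulfonylurea receptor that assembles with Kcnj11, was at 7.85, 4.94 and 6.91 CPM in Bahd1-WT and 8.41, 25.5 and 19.2 CPM in Bahd1-KO, with a log2 fold change of 1.43 and, with the offset, of 0.37. Dlg4, a scaffold that clusters Kv1 channels at synapses, was at 202, 124 and 157 CPM against 251, 682 and 447. Its log2 fold change was 1.52 (adjusted p = 0.0634, edgeR) and, with the offset, 1.79. The latter rests on the 46.8% GC of its longest transcript, and its 8 protein-coding transcripts of at least 2000 bases range from 46.8% to 57.9% GC. Dpp10, an auxiliary protein of Kv4 channels, had -0.54, and 0.11 with the offset. The summed level of all 29 was 8484 to 8885 CPM in Bahd1-WT and 9314 to 10963 in Bahd1-KO.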

How the data were processed

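RNA-seq counts of 1 adult brain hemisphere from each of 3 Bahd1-WT and 3 Bahd1-KO mice were analysed, with groups taken from the genotype labels. The authors trimmed reads with cutadapt 1.11, aligned them to GRCm38 with STAR 2.5.0a and counted them on exons with featureCounts 1.4.6-p3, per the labels' processing notes, and the supplementary methods also name Tophat2 as an aligner. Libraries were of polyadenylated RNA. The deposited values are whole-number counts per gene, without normalization or filter. The paper names a stranded kit and directional libraries, and its supplement strand-specific counting, whereas the labels name a TruSeq RNA kit with no word on strand, so it was not settled whether reads of antisense genes were kept apart.

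A gene was kept when its 6 counts summed to 10 or more. edgeR 4.0.16 (R 4.3.3) was the main test, by quasi-likelihood on TMM-scaled counts with genotype as sole factor, adjusted by Benjamini-Hochberg over all 23975 genes. DESeq2 1.42.0 was an alternative. CPM and RPKM use TMM library sizes, and RPKM the union of exons of GENCODE M21, which also gave GC content. The offset for GC content and length was a natural spline (5 and 3 degrees of freedom) fitted in each library to 13283 genes with a mean log2 CPM above 1. Depth ranged from 42297150 to 93557948 counts, and 3 counts, 0.0321 to 0.0709 CPM, was taken as the least level that could be shown. In data simulated with the library sizes and mean levels of these samples, edgeR recovered 184 of 200 changed genes among 23491. Changed genes were drawn from those of higher counts and moved by at least 2-fold. All genes had the same dispersion, no library stood apart and no GC trend was added. The recovery thus checks the code and does not give the power of the real comparison.

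Members, families and lists were chosen with earlier results of these data known, so that no p was adjusted over them alone. Among members, 33 were named by rule, as the 8 with the lowest p in each direction, the 6 with the highest RPKM and genes of known role in the brain. Some of these and a few other genes are not reported here, and counts over families, lists and all members include them. Any other member named was chosen after its values were seen. Alternatives were other normalizations, filters and tools, leaving out each library, the replicate block and the offset. Leaving out Bahd1-KO replicate 2 together with the offset or with DESeq2, and an offset from the longest protein-coding transcripts, were added after the data were seen. Embryonic brains were not analysed here.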

Additional observations from a re-analysis of the deposited data

How the results depend on the processing

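The count of 0 members at an adjusted p under 0.05 became 15 with total counts, beside 9.4% of all genes. It became 20 with all genes of at least 1 count kept, beside 11.0%. DESeq2 gave 22 with the prior, beside 17.7% higher and 3.54% lower, and 22 without it, beside 21.3%. In the same order, 14, 16, 15 and 16 members were at least 2-fold higher. The filter and both DESeq2 fits also had 1 at least 2-fold lower. Beside the 15 and 1 of DESeq2 with the prior stand 11.9% and 1.13% of all genes. For the other 2-fold counts no share of all genes was taken. The count at an adjusted p under 0.05 was 9 with DESeq2 and the offset. With DESeq2 and without Bahd1-KO replicate 2 it was 17, beside 16.5% of all genes. Of those 17, 3 were at least 2-fold higher, with no share of all genes taken. Leaving out 1 library in edgeR gave 0 to 33, with 0 to 20 at least 2-fold higher. The 33 and 20 were without Bahd1-KO replicate 1, and every other omission gave 0. Beside the 33 stand 30.0% of all genes, and no such share was taken for the 20. Members higher at an unadjusted p under 0.05, each with the share of all genes in parentheses, numbered 9 with the offset (9.82%), 6 with the offset and the replicate block (7.42%), 8 with DESeq2 and the offset (10%), 6 with the offset and without Bahd1-KO replicate 2 (6.68%), and 7 with the offset from coding transcripts (9.69%). Members lower numbered 5 with total counts (7.42%), 18 with the offset (11.6%), 17 with DESeq2 and the offset (9.43%), 22 with the offset from coding transcripts (10.9%), 4 with DESeq2 and without Bahd1-KO replicate 2 (7.65%), and 3 (4.79% without Bahd1-WT replicate 2, 8.36% without replicate 3) to 15 (18.6% without Bahd1-KO replicate 1) when 1 library was left out. The replicate block gave 22 higher and 4 lower (15.1% and 6.68%), but deviations of same-numbered libraries correlated at -0.656 to -0.144, so that the numbers do not pair the samples.

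Of the 30 members named by rule and reported here, 20 kept the sign of their log2 fold change in all alternatives run, and 10 did not. The 5 values that follow each gene are those with the offset, with the offset and block, with DESeq2 and the offset, with the offset without Bahd1-KO replicate 2, and with the offset from coding transcripts. They were 0.047, 0.058, 0.064, 0.069 and 0.088 for Kcnt2, -0.082, -0.081, -0.0595, -0.063 and -0.070 for Kcnab2, and 0.015, 0.015, 0.034, 0.024 and 0.048 for Kcnd2. They were 0.037, 0.033, 0.055, 0.073 and 0.035 for Kcna2, and -0.43, -0.42, -0.38, -0.33 and -0.43 for Kcnc1. They were 0.15, 0.15, 0.17, 0.21 and 0.15 for Kcnh7, -0.16, -0.16, -0.13, -0.19 and -0.28 for Kcnt1, and 0.11, 0.12, 0.12, 0.036 and 0.17 for Kcne2. For Kcng1 the first 3 and the last reversed, at -0.036, -0.029, -0.015 and -0.023. Upper-quartile factors moved the median of all genes from -0.06 to -0.20 and turned none of these members. Total counts turned Kcnj10 to 0.022 and Kcne2 to 0.013. Kcnj10 was 0.011 without Bahd1-KO replicate 2, 0.012 with the offset as well and 0.021 with DESeq2, and 0.0014 with the offset from coding transcripts, and Kcne2 ranged from -0.2145 to 0.043 when 1 library was left out, the latter without Bahd1-WT replicate 3. The cause was not tested. With the longest transcript in place of the union of exons, 6 of 30 mean levels moved by more than the spread, Kcnip4 to 69.8 RPKM. Depth limits members under 0.0709 CPM.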

Other observations

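The transcripts left out by name included Kcnq1ot1, a long RNA antisense to Kcnq1 that is known to silence neighbouring genes from the paternal chromosome. It was at 23.5, 20.2 and 15.7 CPM in Bahd1-WT and 9.84, 10.6 and 7.55 CPM in Bahd1-KO, and the genotypes did not overlap. The log2 fold change was -1.09 ± 0.23 (adjusted p = 0.0634, edgeR) and -0.07 with the GC and length offset, for a transcript of 40.3% GC. Without Bahd1-KO replicate 2 these values were -1.19 and -0.45. Kcnq1 itself was at 0.601, 0.340 and 0.245 CPM in Bahd1-WT and 0.506, 0.966 and 0.466 CPM in Bahd1-KO, with a log2 fold change of 0.72 ± 0.43 (adjusted p = 0.265, edgeR), of 0.28 without Bahd1-KO replicate 2 and of -0.30 with the offset. Kcnmb4os2, antisense to Kcnmb4, was at 1.25 to 1.64 CPM in Bahd1-WT and 1.399 to 2.48 in Bahd1-KO, with a log2 fold change of 0.39, and of -1.46 with the offset (unadjusted p = 0.00393, edgeR). Kcnd3os was at 0.194 to 0.341 CPM in Bahd1-WT and 0.345 to 0.693 in Bahd1-KO, with 0.92, and -0.80 with the offset. Kcnab3os had at most 12 counts and Kcnmb4os1 at most 3 counts in any library.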
